A study of Mus musculus with 6 samples.

Results

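The matrix metalloproteinases and their tissue inhibitors form a system of secreted and membrane-bound enzymes, and of proteins that block them. It is followed here through 10 genes chosen by symbol, the metalloproteinases Mmp2, Mmp3, Mmp9, Mmp10, Mmp13, Mmp14 and Mmp19 and the inhibitors Timp1, Timp2 and Timp3. They are 10 of the 27179 rows of the deposited count table. All 10 had enough counts to be tested, along with the rest of the 13769 genes kept. RNA was measured in 6 libraries of cultures described as primary satellite cells, which are muscle stem cells, taken from hindlimbs of wild-type C57BL/6 mice. The labels call the cells ageing but give no age. All cultures grew in DMEM with fetal bovine serum and bFGF. For 72 h, 3 cultures received recombinant human MG53 (rhMG53), a TRIM family protein known for its part in membrane repair, and 3 received bovine serum albumin (BSA), the vehicle. The comparison asks which genes differ in RNA level when the protein is added. The replicates are described as biological, yet the labels do not say which animal or culture gave which library, so a p-value speaks of the spread among libraries, which may be technical.

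Metalloproteinases are zinc-dependent enzymes, made as inactive proenzymes, that cut collagens, laminins, fibronectin and proteoglycans. The inhibitors bind the active site of the mature enzymes. MMP14, held in the plasma membrane, takes part with TIMP2 in activating MMP2, so TIMP2 serves both as an inhibitor and as a partner in activation. In muscle, MMP2 and MMP9 are known for cutting the type IV collagen of the basement membrane, under which satellite cells lie, and several members act in regeneration after injury.

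Library totals ran from 17374151 to 22738745 counts. Levels are given as CPM, counts scaled to a common library size, and a limit of 3 counts amounts to 0.133 to 0.174 CPM. The 8 muscle markers summed to 41518 to 44244 CPM with BSA and 38460 to 44558 CPM with rhMG53, led by Myh3, Acta1 and Des, genes of differentiating muscle. Over all libraries Myh3 averaged 21459.5 CPM and Acta1 12467.8 CPM, whereas Pax7, the satellite cell marker among the 8, averaged 9.24 CPM. Most of the muscle marker RNA was thus that of differentiating muscle. What share of the cells were still stem cells was not tested. The 11 fibroblast markers summed to 1059 to 1300 CPM with BSA and 1171 to 1312 CPM with rhMG53. Most of that sum came from Col1a1 and Col3a1, at means of 716.0 and 434.0 CPM, which are also listed below as matrix substrates. Pdgfra, the next highest, averaged 21.9 CPM. Of the 11 markers, 3 averaged under 1 CPM, with Tcf21 at 0 in all libraries. Pericyte and smooth muscle markers summed to 142.6 to 161.3 CPM with BSA and 142.1 to 161.0 CPM with rhMG53. The sum of the 9 macrophage and leukocyte markers was 9.04 to 10.7 CPM with BSA and 8.81 to 13.02 CPM with rhMG53, led by Itgam, Mrc1 and Lyz2, and 6 of the 9 averaged under 1 CPM. Ptprc, the pan-leukocyte marker, had at most 2 counts in any library. Of 5 neutrophil markers, only S100a8 and Ly6g had any count, the other 3 had none in any library, and the sum was at most 0.303 CPM. The 6 endothelial markers, led by Emcn, Cdh5 and Tek, summed to 1.75 to 2.48 CPM with BSA and 1.46 to 2.20 CPM with rhMG53. Emcn, the only one tested, was lower in all rhMG53 libraries, at 6 to 11 counts against 14 to 26, with a log2 fold change of -0.90 (unadjusted p = 0.0269 and adjusted p = 0.946 in edgeR). What part fibroblasts had in the levels of the members was not tested.

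No member passed the threshold between rhMG53 and BSA, an adjusted p under 0.05 in edgeR's quasi-likelihood test (0 of 10). The background is 0.0218% of the 13769 genes tested, or 3 genes. DESeq2 and limma voom also called 0 members. At an unadjusted p under 0.05 there were 2 members in edgeR, Mmp3 and Mmp13, against 5.20% of all genes, 1 in DESeq2 and 2 in limma voom. The 3 libraries of one group lay wholly above the 3 of the other for 2 members, Mmp3 and Timp2, both higher with rhMG53, against 10.8% of all genes in either direction. A positive log2 fold change was found for 9 of 10 members, against 50.5% of all genes, with Mmp19 the exception. For Mmp2, Mmp9, Timp1 and Timp3 the sign depended on single libraries. The median log2 fold change was 0.08 over the 10 members, 0.16 over the 7 metalloproteinases and 0.07 over the 3 inhibitors, and 0.00 over all genes. In bulk RNA, fewer cells of a type and less RNA per cell cannot be told apart, which touches every value here.

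**Figure D1:**
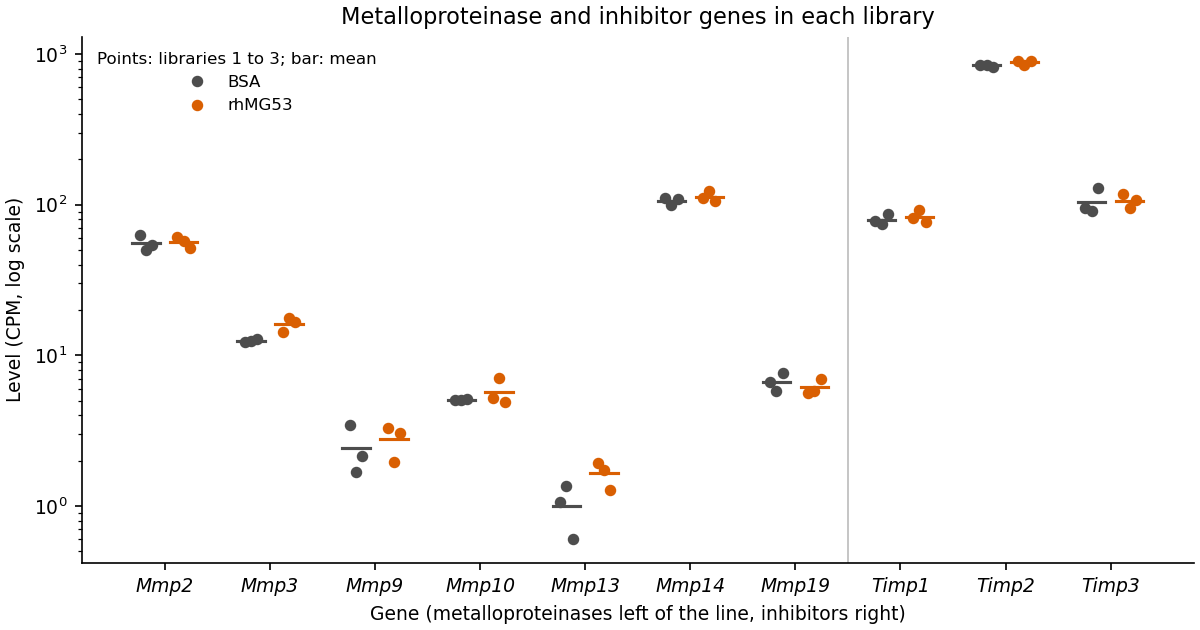
Level of each member in CPM (log axis) in the 6 libraries, with BSA and rhMG53 as separate points and the mean of each group as a bar. The groups are apart for Mmp3 and Timp2 and overlap for the other 8 members.

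Mmp3, Mmp10 and Mmp13 lie in the metalloproteinase cluster of chromosome 9, and their promoters are shown because 2 of these 3 genes are the members with an unadjusted p under 0.05. The 100 bases before the annotated start are given 5′ to 3′ on the strand of the gene, from RefSeq on GRCm38.p6, the assembly of mm10, with the AP-1 and TATA motifs in capitals. Mmp3 is at chr9:7445722-7445821, Mmp10 at chr9:7502242-7502341 and Mmp13 at chr9:7272414-7272513, all on the plus strand. The promoters of Timp1, at chrX:20870066-20870165 on the plus strand, and of Timp2, at chr11:118355412-118355511 on the minus strand, are set beside them as those of the most abundant inhibitors.
Mmp3: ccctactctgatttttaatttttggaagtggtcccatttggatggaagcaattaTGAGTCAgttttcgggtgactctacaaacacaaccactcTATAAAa
Mmp10: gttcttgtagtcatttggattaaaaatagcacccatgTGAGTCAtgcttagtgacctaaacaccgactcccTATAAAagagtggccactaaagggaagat
Mmp13: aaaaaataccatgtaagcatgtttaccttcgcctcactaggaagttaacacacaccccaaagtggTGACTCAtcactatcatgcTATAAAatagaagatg
Timp1: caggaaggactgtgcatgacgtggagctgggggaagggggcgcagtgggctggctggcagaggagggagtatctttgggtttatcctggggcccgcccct
Timp2: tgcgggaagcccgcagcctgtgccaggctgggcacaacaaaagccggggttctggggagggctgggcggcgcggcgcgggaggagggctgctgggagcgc
AP-1, the dimer of FOS and JUN proteins known to act on metalloproteinase promoters, was searched as TGACTCA on both strands, which takes in its reverse complement TGAGTCA. The TATA motif was searched as TATAAA on both strands, and the motifs do not overlap in these windows. In Mmp3 the AP-1 match lay at -46 to -40 and the TATA match at -7 to -2, counted from the base before the start as -1. In Mmp10 they lay at -63 to -57 and -29 to -24, and in Mmp13 at -35 to -29 and -16 to -11. All 3 of these members thus held both matches in the same order, and the other genes of the cluster were not looked at one by one. Of 32851 promoters of 27025 genes, 1.88% held the AP-1 match in this window, 5.56% the TATA match and 0.149% both, or 49 promoters. The windows of Mmp14, Timp1, Timp2 and Timp3 held neither, nor did a search of 250 bases, where 4.46% of promoters held the AP-1 match and 12.4% the TATA match. GC content was 38%, 41% and 38% in the windows of Mmp3, Mmp10 and Mmp13, 54% in that of Mmp14, and 65%, 75% and 69% in those of Timp1, Timp2 and Timp3. No sequence was matched for Mmp2, Mmp9 and Mmp19, so 7 of the 10 members are covered. A match is a run of letters, and binding was not measured.

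**Figure D2:**
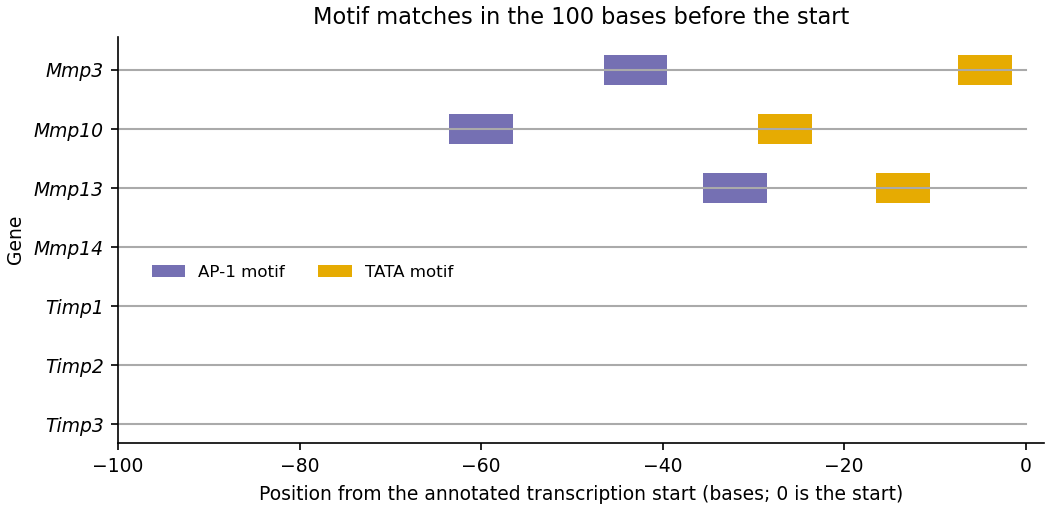
Positions of the AP-1 and TATA motif matches in the 100 bases before the annotated start of the 7 members with a promoter sequence, in bases from the start. Matches are present in Mmp3, Mmp10 and Mmp13 and in no window of the other 4.

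The stromelysins Mmp3 and Mmp10 encode closely related enzymes that cut proteoglycans, laminin and fibronectin and can activate other proenzymes. Mmp3 (gene ID 17392, mm10 chromosome 9, 7445822 to 7455975) stood at 12.3, 12.4 and 12.9 CPM in BSA replicates 1 to 3 and at 14.2, 17.8 and 16.8 CPM in rhMG53 replicates 1 to 3. Every rhMG53 library was above every BSA library, and the BSA libraries lay close together. The means were 12.5 ± 0.334 CPM with BSA, against 16.3 ± 1.84 CPM with rhMG53 (SD, n = 3 each). The log2 fold change was 0.37 (SE 0.101, 95% interval 0.15 to 0.60), a 1.30-fold difference with an interval of 1.11 to 1.51. In edgeR's quasi-likelihood test the unadjusted p was 0.00366 and the adjusted p 0.935, so the difference did not pass. Leaving out rhMG53 replicate 2, the highest library, gave a log2 fold change of 0.30 with an adjusted p of 0.950 in edgeR.

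Mmp10 (17384, chromosome 9, 7502342 to 7510242), which starts 46.4 kb past the end of Mmp3, stood at 5.04, 5.03 and 5.11 CPM with BSA and at 5.20, 7.08 and 4.93 CPM with rhMG53. Only rhMG53 replicate 2 stood apart, and the groups overlapped. The means were 5.06 ± 0.0469 and 5.74 ± 1.17 CPM (SD, n = 3 each). The log2 fold change was 0.18 (SE 0.158, interval -0.17 to 0.53, adjusted p = 0.981 in edgeR), and without rhMG53 replicate 2 it was 0.00. In that library Lyz2, a lysozyme gene of the leukocyte marker list, was also high, at 3.98 CPM against 0.565 to 0.858 CPM in the other libraries. Other markers of that list were mixed. Cd68 and Cd14 were at their highest there, at 1.36 and 1.25 CPM. Itgam, at 4.36 CPM, lay within the 4.29 to 5.40 CPM of the other libraries, and Ptprc had 0 counts in rhMG53 replicate 2. Without that library the Mmp3 groups still did not overlap, at 12.3 to 12.9 CPM against 14.2 and 16.8 CPM. Of the 50-base stretches in its transcripts, Mmp3 shared 8.39% with other genes, Mmp10 among them, and Mmp10 shared 8.37% with Mmp3, so some reads could be assigned to either gene.

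Mmp13, a collagenase that cuts fibrillar collagen, had the lowest mean level per kb of exon of the members. Mmp13 (17386, chromosome 9, 7272514 to 7283333) had 24, 24 and 11 counts with BSA and 38, 32 and 22 counts with rhMG53, or 1.06, 1.36 and 0.605 CPM against 1.92, 1.74 and 1.28 CPM. The lowest rhMG53 library was below the highest BSA library. With so few counts the exact Poisson 95% interval ran from 5.49 to 19.7 for 11 counts and from 26.9 to 52.2 for 38 counts, which covers counting error only. The means were 1.01 ± 0.378 and 1.65 ± 0.333 CPM (SD, n = 3 each). This gave a log2 fold change of 0.71 (SE 0.301, interval 0.05 to 1.38), with an unadjusted p of 0.0377 and an adjusted p of 0.950 in edgeR. It was 0.47 without BSA replicate 3, whose 11 counts were the fewest, with an unadjusted p of 0.135 in edgeR. DESeq2 gave Mmp13 an unadjusted p of 0.0832.

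The gelatinases Mmp2 and Mmp9, which cut denatured collagen and the collagen of basement membranes, showed no separation between groups. Mmp2 (17390, chromosome 8, 92827290 to 92853421) stood at 63.4, 50 and 54.1 CPM with BSA and at 61.3, 57.8 and 51.5 CPM with rhMG53. The groups lay over one another. For Mmp2 the log2 fold change was 0.02 (SE 0.095, interval -0.18 to 0.23, adjusted p = 0.995 in edgeR), with means of 55.8 ± 6.86 and 56.8 ± 4.98 CPM (SD, n = 3 each). The interval of the fold ran from 0.880 to 1.18. Mmp9 (17395, chromosome 2, 164940326 to 164955850) had 78, 30 and 39 counts with BSA and 65, 36 and 53 counts with rhMG53. These came to 3.45, 1.69 and 2.14 CPM and to 3.28, 1.96 and 3.07 CPM, so that replicate 1 was the highest library of each group. For Mmp9 the log2 fold change was 0.16 (SE 0.279, interval -0.45 to 0.78, adjusted p = 0.992 in edgeR). At this depth and spread the interval of the fold was wide, from 0.731 to 1.72, and took in 1. The log2 fold change of Mmp9 was 0.53 without BSA replicate 1 and -0.03 without BSA replicate 2.

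Mmp14, the membrane-bound activator of MMP2, had the highest mean level per kb of exon among the 7 metalloproteinases. Mmp14 (17387, chromosome 14, 54431598 to 54442456) stood at 110.2, 99.0 and 108.8 CPM with BSA and at 111.6, 122.4 and 105.8 CPM with rhMG53. The groups overlapped, with rhMG53 replicate 2 the highest and BSA replicate 2 the lowest. Between groups the log2 fold change was 0.10 (SE 0.071, interval -0.06 to 0.25, adjusted p = 0.973 in edgeR), with means of 106.0 ± 6.12 and 113.3 ± 8.43 CPM (SD, n = 3 each). Mmp19, a secreted enzyme that cuts basement membrane proteins, was the sole member with a negative value. Mmp19 (58223, chromosome 10, 128790910 to 128800827) stood at 6.63, 5.76 and 7.64 CPM with BSA and at 5.65, 5.83 and 6.96 CPM with rhMG53, and the groups overlapped. Its log2 fold change was -0.12 (SE 0.145, interval -0.44 to 0.20, adjusted p = 0.986 in edgeR). Exons of Tmem198b on the opposite strand, a gene with 192 to 267 counts per library, cover 789 bases or 22.3% of the exon bases of Mmp19. The strand setting of the counting is not given in the sources used here, so Mmp19 is uncertain.

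Timp2, an inhibitor that also takes part in the activation of MMP2, had the highest level per kb of exon of the members. Timp2 (21858, chromosome 11, 118301061 to 118355411) stood at 846.5, 848.1 and 825.1 CPM with BSA and at 897.2, 851.2 and 903.9 CPM with rhMG53. The rhMG53 libraries were all above the BSA libraries, but replicate 2 of the 2 groups differed by little. The means were 839.9 ± 12.8 and 884.1 ± 28.7 CPM (SD, n = 3 each). The log2 fold change was 0.07 (SE 0.059, interval -0.06 to 0.20, unadjusted p = 0.239 and adjusted p = 0.978 in edgeR), which did not pass. At 15004 to 19151 counts per library Timp2 was the member with the narrowest interval, and the fold change lay between 0.961 and 1.15.

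Timp1, an inhibitor that is induced by cytokines in many cell types, overlapped between groups. Timp1 (21857, chromosome X, 20870166 to 20874737) stood at 77.6, 74.5 and 86.2 CPM with BSA and at 81.0, 91.8 and 76.6 CPM with rhMG53. Its log2 fold change was 0.07 (SE 0.081, interval -0.11 to 0.25, adjusted p = 0.986 in edgeR) and it was -0.01 without rhMG53 replicate 2. Timp1 lies within Syn1, a gene of the opposite strand, with which it shares no exon bases. Timp3, which binds to the matrix and also inhibits ADAM proteases, varied more between libraries. Timp3 (21859, chromosome 10, 86300412 to 86349505) stood at 95.4, 90.5 and 128.8 CPM with BSA and at 118.2, 94.7 and 106.7 CPM with rhMG53. The highest and the lowest library were both BSA libraries, and the log2 fold change was 0.02 (SE 0.124, interval -0.25 to 0.30, adjusted p = 0.997 in edgeR). Syn3, on the opposite strand, shares 1733 exon bases with Timp3, or 21.3% of the exon bases of Timp3, and had 5 to 10 counts in a library. As for Mmp19, the unknown strand setting leaves the level of Timp3 uncertain.

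**Figure D3:**
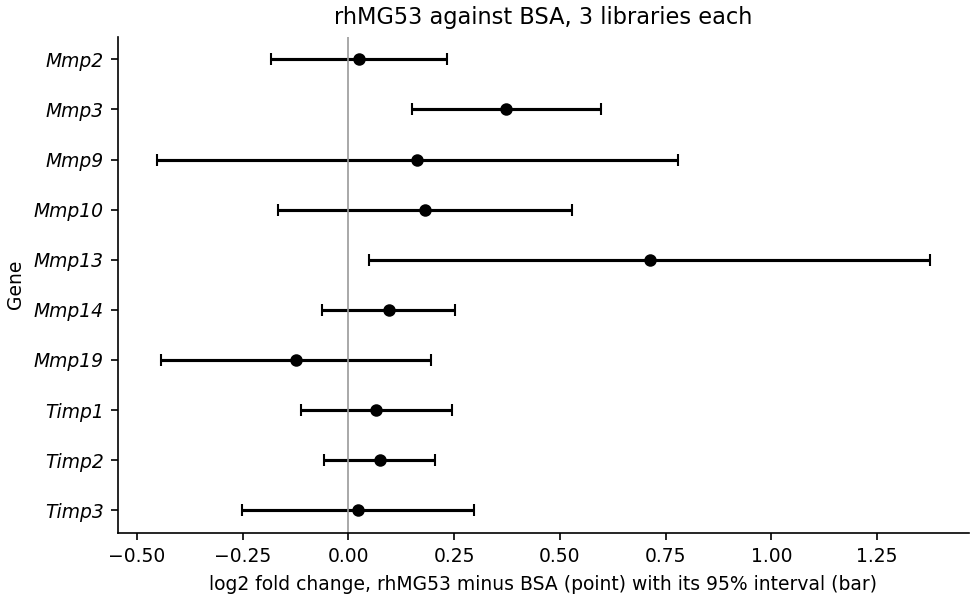
Log2 fold change of each member, rhMG53 over BSA, with its 95% interval from edgeR's quasi-likelihood fit of 3 against 3 libraries. Intervals of Mmp3 (0.15 to 0.60) and Mmp13 (0.05 to 1.38) lie above 0, and those of the other 8 members span it, before adjustment over all genes.

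Single libraries took the extreme value for several members at once. Of the 10 members, rhMG53 replicate 2 was the highest library for 4, Mmp3, Mmp10, Mmp14 and Timp1, and the lowest for 0. BSA replicate 2 was the lowest for 5, Mmp2, Mmp9, Mmp14, Timp1 and Timp3, and the highest for 0. Whether these libraries differ in cell makeup was not tested beyond the markers above.

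Levels of different genes were compared per kilobase of exon. The order over the 6 libraries was Timp2 at 221.3 ± 8.04, Timp1 at 91.6 ± 7.40, Mmp14 at 18.4 ± 1.29, Mmp2 at 16.7 ± 1.60 and Timp3 at 12.98 ± 1.86 CPM per kb (SD, n = 6). Below them were Mmp3 at 8.0 ± 1.31, Mmp10 at 3.14 ± 0.482, Mmp19 at 1.82 ± 0.226, Mmp9 at 0.735 ± 0.213 and Mmp13 at 0.496 ± 0.177 CPM per kb (SD, n = 6). Neighbours whose ranges overlapped were Mmp14 and Mmp2, Mmp2 and Timp3, and Mmp9 and Mmp13. Within single libraries Mmp14 was above Mmp2 in 5 of 6, Mmp2 above Timp3 in 6 of 6 and Mmp9 above Mmp13 in 4 of 6. Timp3 has a long transcript, and when the longest coding transcript was taken as the length it stood above Mmp2, at 22.4 against 18.3 CPM per kb, with Mmp14 at 33.9.

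Summed over the members, inhibitor RNA exceeded metalloproteinase RNA in every library. The 3 inhibitors summed to 317.9 ± 6.12 CPM per kb with BSA and 333.7 ± 2.32 with rhMG53, and the 7 metalloproteinases to 47.2 ± 3.21 and 51.4 ± 3.03 (SD, n = 3 each). The inhibitor sum was 312.7 to 324.7 CPM per kb in BSA libraries and 331.4 to 336.1 in rhMG53 libraries, which did not overlap, whereas the metalloproteinase sums did, at 43.9 to 50.3 and 48.5 to 54.5. Without division by length the inhibitor sums overlapped too, at 1013 to 1040 CPM with BSA and 1038 to 1096 CPM with rhMG53. The inhibitor sum was 6.75 ± 0.425 times the metalloproteinase sum with BSA (6.29 to 7.13) and 6.51 ± 0.364 times with rhMG53 (6.11 to 6.83), and these ranges overlapped. These are RNA levels, and protein or activity was not measured.

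**Figure D4:**
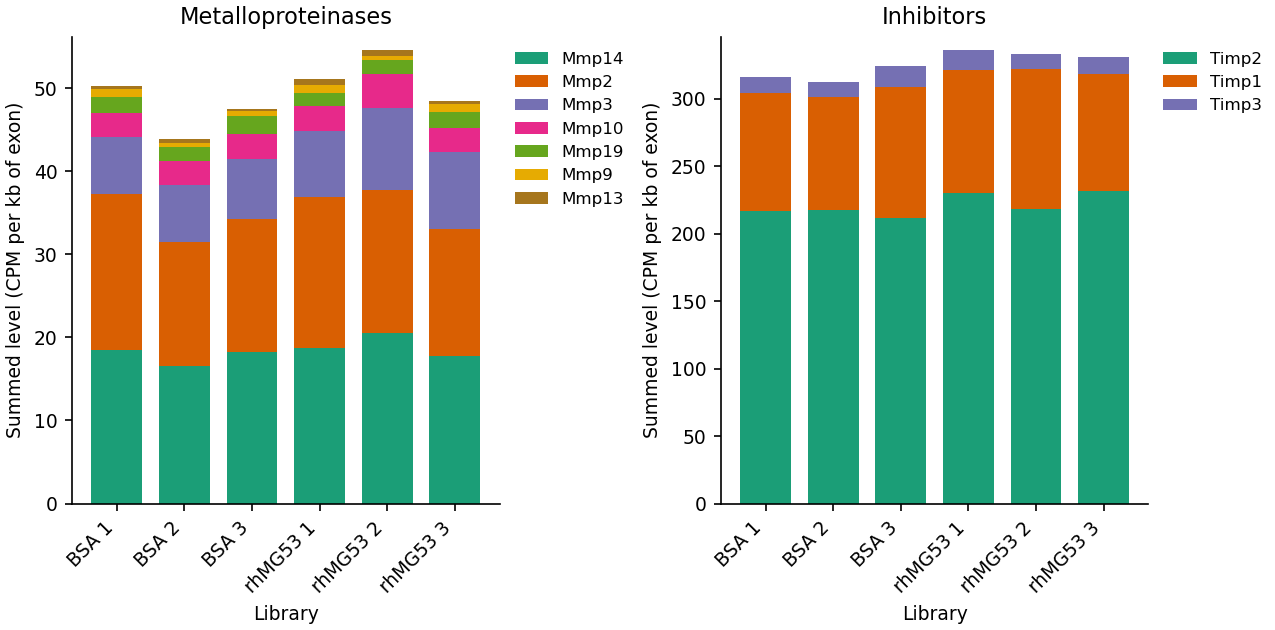
Stacked levels of the 7 metalloproteinases (left) and the 3 inhibitors (right) in each of the 6 libraries, in CPM per kb of exon, on separate axes that start at 0. Mmp14 and Mmp2 form the base of each metalloproteinase bar and Timp2 that of each inhibitor bar, and inhibitor bars reach 331.4 to 336.1 with rhMG53 against 312.7 to 324.7 with BSA, ranges that overlap when the levels are not divided by length.

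Timp2 made up 67.8 ± 2.30% of the inhibitor sum with BSA and 68.0 ± 2.29% with rhMG53, and Timp1 28.1 ± 1.59% and 28.1 ± 2.60% (SD, n = 3 each). Timp3 made up the rest, 4.04% and 3.92%. Of the metalloproteinase sum, Mmp14 held 37.7 ± 0.873% and 37.0 ± 0.596%, Mmp2 35.0 ± 2.07% and 32.8 ± 2.40%, and Mmp3 14.8 ± 1.12% and 17.6 ± 1.91% (SD, n = 3 each). The activating partners Mmp14 and Mmp2 thus gave most of the sum of these 7 metalloproteinases in both groups. Timp2 stood 12.2 ± 0.830 times above Mmp14 per kb with BSA and 12.0 ± 1.24 times with rhMG53 (SD, n = 3 each), a difference within the spread. The size of this ratio and of the shares depends on the length used. With the longest coding transcript as length, Timp2 averaged 232.4, Mmp14 33.9 and Mmp2 18.3 CPM per kb over all libraries. Without division by length, Timp2 averaged 862.0 CPM and Mmp14 109.6 CPM.

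The whole metalloproteinase family places the members in context. Of 23 metalloproteinase genes in the table, 14 had enough counts to be tested. Mmp15, a membrane-bound enzyme that is no member, had the highest mean level, 20.3 CPM per kb, next to 18.4 for Mmp14. Their ranges overlapped, at 18.9 to 22.3 and 16.6 to 20.5 CPM per kb. Without division by length their means were 109.5 and 109.6 CPM, so their order depends on the length used. Mmp11 stood at 4.41 CPM per kb between Mmp3 and Mmp10. The cluster on chromosome 9, 7272514 to 7699585, holds 10 of the genes over 427.1 kb. Within it Mmp13, Mmp12, Mmp3 and Mmp10 were tested, and the other 6 (Mmp1b, Mmp1a, Mmp8, Mmp27, Mmp20 and Mmp7) had at most 4 counts in any library. Mmp8, the neutrophil collagenase, had 1 to 4 counts, and Mmp20, an enzyme of tooth enamel, had none, which allows up to 0.174 CPM. Mmp12, the macrophage elastase, had 22 to 52 counts.

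**Figure D5:**
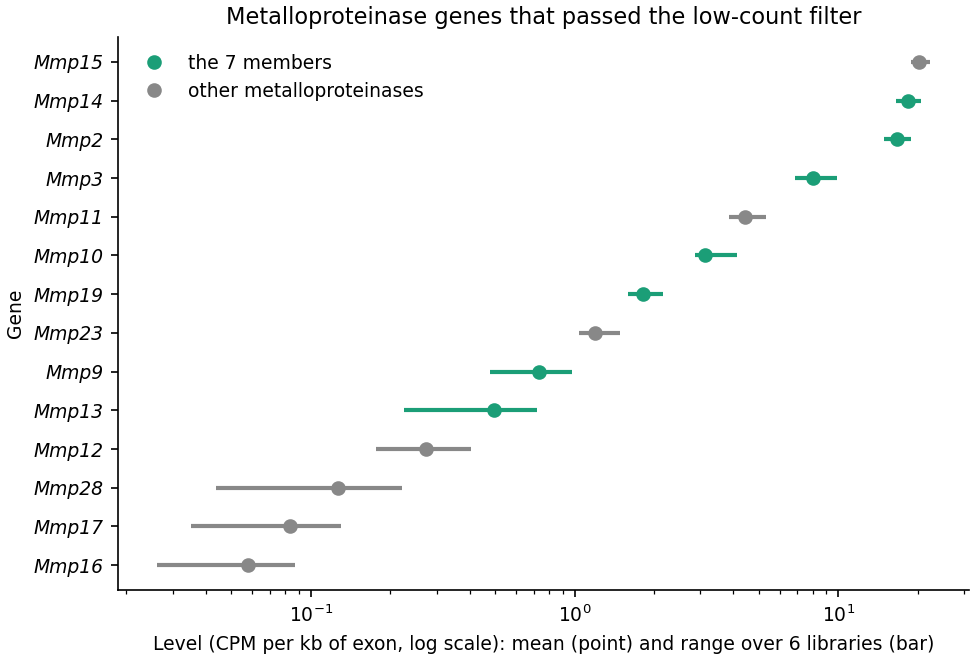
Mean level of the 14 tested metalloproteinase genes in CPM per kb of exon (log axis) over the 6 libraries, with the range over libraries as a line and the 7 members in green. Mmp15, Mmp14 and Mmp2 lead, and the members Mmp9 and Mmp13 lie below Mmp23 and above Mmp12 in mean level.

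Among the genes related to the members, 115 were placed in 6 lists and 94 of them were tested. In edgeR 0 passed the threshold, against 0.0218% of all genes tested, with 6 higher and 2 lower at an unadjusted p under 0.05, against 5.20% of all genes. DESeq2 and limma voom also called 0, with 6 and 7 at an unadjusted p under 0.05. The log2 fold change was positive for 54 and negative for 40, against 50.5% positive among all genes, with a median of 0.03. Groups did not overlap for 5 genes higher and 5 lower with rhMG53 of these 94, near the 10.8% of all genes in either direction.

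Of 7 other metalloproteinases tested, 5 had a positive and 2 a negative log2 fold change, with a median of 0.08. Mmp11, which is expressed by stromal cells in remodelling tissue, was 11.3 ± 0.552 CPM with BSA, against 13.2 ± 1.35 CPM with rhMG53 (SD, n = 3 each), and the groups did not overlap. Its log2 fold change was 0.21 (SE 0.104, adjusted p = 0.958 in edgeR). Those of Mmp15 and Mmp17 were 0.08 and -0.38, with adjusted p of 0.981 and 0.986 in edgeR, and Mmp17 was under 1 CPM in both groups on average. The Mmp17 value turned on single libraries, at -1.15 without rhMG53 replicate 1 and -0.074 without rhMG53 replicate 3. Of 4 other inhibitors 2 were tested. Reck, a membrane-anchored inhibitor of several metalloproteinases, had a log2 fold change of 0.17 (SE 0.212) and Tfpi2, a secreted inhibitor of serine proteases, of -0.07 (SE 0.095), neither past the threshold. The value of Reck was 0.38 without BSA replicate 3.

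In the activation and clearance list, which holds the plasminogen system and receptors that hold or take up the enzymes, 7 of 16 tested genes had a positive log2 fold change and 9 a negative one. Cd44, a hyaluronan receptor that can hold MMP9 at the cell surface, was 103.9 ± 8.95 CPM with BSA, against 118.9 ± 3.47 CPM with rhMG53 (SD, n = 3 each) without overlap, with a log2 fold change of 0.19 (adjusted p = 0.940 in edgeR, SE 0.070). Serpinb2, an inhibitor of plasminogen activators, had a log2 fold change of 0.90 (adjusted p = 0.958 in edgeR, SE 0.435), and of 0.33 without rhMG53 replicate 1, which had 36 counts against 16 and 11 in the other rhMG53 libraries. Cd44 and Mmp3 were each higher in all rhMG53 libraries, where 10.8% of all genes were apart in either direction, and neither passed.

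Of 23 ADAM and ADAMTS proteases tested, 11 were positive and 12 negative in log2 fold change. Adamts4, an aggrecanase that cuts proteoglycans, was 24.2 ± 1.499 CPM with BSA, against 20.8 ± 2.43 CPM with rhMG53 (SD, n = 3 each), without overlap. Its log2 fold change was -0.22 (SE 0.096, unadjusted p = 0.0465 and adjusted p = 0.950 in edgeR). Adam22 and Adam8 had log2 fold changes of -0.45 (SE 0.252) and -0.51 (SE 0.301), neither past the threshold, and that of Adam8 was -0.19 without BSA replicate 3. Of 26 matrix substrates tested, 15 were positive and 11 negative, with a median of 0.03. Eln, which encodes elastin, had a log2 fold change of 1.30 (adjusted p = 0.950 in edgeR, SE 0.587), from means of 0.660 and 1.55 CPM. It rested on rhMG53 replicate 1, with 60 counts against 20 and 9 in the other rhMG53 libraries, and was 0.34 without it. Dcn, the proteoglycan decorin and also a fibroblast marker, was at 0.19 (SE 0.090) and Lama5, a laminin chain, at -0.17 (SE 0.086), and neither passed.

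The list of regulators and inducing cytokines, which includes the AP-1 subunits, had 15 positive and 5 negative log2 fold changes among 20 tested genes. Its 2 AP-1 subunits of lowest p had opposite signs. Jund was 77.2 ± 11.3 CPM with BSA, against 99.0 ± 14.6 CPM with rhMG53 (SD, n = 3 each), with overlapping groups and a log2 fold change of 0.36 (adjusted p = 0.935 in edgeR, SE 0.117). Fos was 102.5 ± 3.86 and 87.6 ± 10.6 CPM (SD, n = 3 each), lower in all rhMG53 libraries, with a log2 fold change of -0.23 (adjusted p = 0.940 in edgeR, SE 0.084). Tgfb1, a cytokine that acts on matrix genes, had a log2 fold change of 0.26 (adjusted p = 0.940 in edgeR, SE 0.097).

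The pattern of Mmp3, the member of lowest p, was compared over the 6 libraries with 10197 genes of at least 5 CPM. The most alike in log2 CPM were Klf5, a zinc finger transcription factor (Pearson r = 0.991, Spearman rho = 1.0), Ndfip1, an adaptor of ubiquitin ligases (0.988 and 0.829), and Dok4, a docking protein (0.986 and 0.886). With 6 libraries, 138 genes had an r over 0.9, and the points share their library and its depth. Klf5 stood at 80.4, 81.1 and 83.3 CPM with BSA and at 88.6, 96.1 and 93.8 CPM with rhMG53, and its log2 fold change of 0.19 had an adjusted p of 0.935 in edgeR.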

How the data were processed

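RNA was measured in 6 libraries, 3 per group, from TRIzol extracts made into libraries with a directional poly(A) kit under a low-input protocol, per the labels' protocols. The submitters' processing notes name mm10 as build and STAR, featureCounts and edgeR as tools. Annotation, versions, strand setting and the handling of multimapped reads are not given in the sources used. The count table the authors deposited holds whole numbers per NCBI gene ID and library, without normalisation. No column was left unused.

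Symbols and coordinates (1-based) came from RefSeq tables of GRCm38.p6, which named 25275 IDs, and from GENCODE for 18 more. Exon lengths came from the annotation. Genes were kept with filterByExpr (minimum count 10, minimum total 15), scaled with TMM factors and compared by the quasi-likelihood F test of edgeR 4.0.16 (R 4.3.3), 2-sided, treatment as the only term. P-values were adjusted by Benjamini-Hochberg over the 13769 genes tested, and an adjusted p under 0.05 counted as passed. The fit was run on simulated counts with known changes in genes of higher counts. That run does not show whether changes as small as those of most members would pass. Alternatives were other scalings, no filter, DESeq2 1.42.0, limma voom (limma 3.58.1), robust moderation, a replicate block and leaving out each library.

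Named genes are the 10 members, every list gene past the threshold, the 3 tested genes of lowest p in each pathway list, the 3 highest of each marker list, and the 3 genes most like the member of lowest p. Marker genes apart from these and the family members without a test were named after their values were seen. Some genes that this rule names, and the marker list of 1 cell type, are not reported here. The members and lists were chosen with earlier results of these data known. Replicates of a group differed by more than sampling noise in all pairs.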

Additional observations from a re-analysis of the deposited data

How the results depend on the processing

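Over the 14 alternatives, 6 of which left out a library, 0 members and 0 genes of the pathway lists passed. The number of all genes called, 3, became 6 without a filter on low counts, 5 in DESeq2, 0 with the replicate block and 0 to 4 when a library was left out, with 0 without BSA replicate 2. Mmp3 kept a positive log2 fold change (0.30 to 0.46) and an unadjusted p under 0.05 in all 14 (adjusted p 0.449 to 1.0 in edgeR, DESeq2 or limma). With the replicate block, the log2 fold change of Mmp3 was 0.37 and its adjusted p 0.972 in edgeR. The labels do not say whether the replicate numbers pair the libraries. Same-numbered libraries correlated at 0.190, -0.127 and -0.150 in their deviations from the group means, and only BSA replicate 1 correlated best with its own number. With 3 libraries per group these correlations cannot decide whether the numbers mark pairs. Mmp13 ranged from 0.47 to 0.95, with an unadjusted p under 0.05 in 9 of 14. The sign of 4 members turned when a library was left out, over ranges of -0.048 to 0.13 for Mmp2, -0.030 to 0.53 for Mmp9, -0.011 to 0.13 for Timp1 and -0.072 to 0.20 for Timp3. The cause was not tested. The inhibitor to metalloproteinase ratio, 6.63 over the 6 libraries per kb of exon, was 5.37 without division by length and 5.23 with the longest coding transcript as length, an alternative chosen after seeing the data. Depth limits Mmp9 and Mmp13 most, at 11 to 78 counts per library.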
